A study of Mus musculus with 36 samples.

Results

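The genes described here are the receptor tyrosine kinase gene Ret, the genes of the 4 ligands of the GDNF family (Gdnf, Nrtn, Artn and Pspn) and the genes of the 4 GFRA co-receptors (Gfra1, Gfra2, Gfra3 and Gfra4), 9 of 22350 protein-coding genes on chromosomes 1 to 19 and X. They were chosen by name, and a peak was counted for a gene when the centre of the peak lay in the gene body or within 100 kb of it. The study asked which genes PAX6 binds in enteric precursor cells (EPCs). Chromatin came from EPCs of the ganglionic gut of CD1 mice at postnatal day 7, cultured as neurosphere-like bodies. The medium of all libraries contained glial cell-derived neurotrophic factor, the ligand that Gdnf encodes, beside basic fibroblast growth factor and epidermal growth factor. PAX6 ChIP gave 4 libraries in pool 1, 6 in pool 2 and 6 in pool 3, mouse IgG as negative control gave 4 libraries, labelled pool 1, and as many inputs as ChIP libraries were sequenced in each pool.

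The libraries of each pool had been merged before peaks were called, so each pool and IgG is represented by a single list of positions, without a value per library. The lists held 491 peaks in pool 1, 1032 in pool 2 and 724 in pool 3, against 1007 for IgG. The score of a peak is the p-value that the peak caller MACS gave it, on a logarithmic scale, and higher scores stand for smaller p-values. It depends on sequencing depth, which the lists do not give, so peaks were compared by rank within a list. Score limits common to all lists were used only among the alternatives at the end. The lowest score was 50.12 in pool 1, 50.16 in pool 2 and 50.09 in pool 3, against 50.04 for IgG, and the identity of the cells cannot be checked from peak positions.

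RET is the signalling receptor of this family. Each ligand binds a GFRA protein held at the cell surface, by preference GDNF to GFRA1, neurturin (Nrtn) to GFRA2, artemin (Artn) to GFRA3 and persephin (Pspn) to GFRA4, and the complex then activates the kinase of RET. In the gut, GDNF from the mesenchyme keeps the neural crest-derived precursors alive, dividing and migrating, and RET is the main gene of Hirschsprung disease.

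PAX6 peaks were found at Ret, Pspn and Gfra1, 1 at each gene and each from a different pool, and Gfra1 also had an IgG peak. The other 6 genes, Gdnf, Nrtn, Artn, Gfra2, Gfra3 and Gfra4, had no peak of any list. The 3 PAX6 peaks differed in what their DNA consisted of, and their sequences on mm9 are given here, forward strand, up to 300 bp around the longest perfect tandem repeat of the peak. Capitals mark that repeat and every uninterrupted CA or TG run of at least 12 bp, also where the stretch ends within the run.
Ret, pool 2, chr6:118004781-118005080: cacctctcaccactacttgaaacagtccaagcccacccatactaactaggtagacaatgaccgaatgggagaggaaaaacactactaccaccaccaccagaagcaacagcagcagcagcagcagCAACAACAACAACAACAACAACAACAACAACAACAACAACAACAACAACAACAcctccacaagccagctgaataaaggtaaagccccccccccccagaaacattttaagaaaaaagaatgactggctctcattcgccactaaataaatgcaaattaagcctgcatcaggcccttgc
Pspn, pool 1, chr17:57089781-57090080: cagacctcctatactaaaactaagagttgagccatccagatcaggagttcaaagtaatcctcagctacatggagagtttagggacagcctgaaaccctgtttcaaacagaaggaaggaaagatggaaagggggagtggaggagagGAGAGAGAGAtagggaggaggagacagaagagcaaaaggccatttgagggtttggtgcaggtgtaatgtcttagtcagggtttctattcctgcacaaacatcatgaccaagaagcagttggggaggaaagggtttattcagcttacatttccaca
Gfra1, pool 3, chr19:58393014-58393313: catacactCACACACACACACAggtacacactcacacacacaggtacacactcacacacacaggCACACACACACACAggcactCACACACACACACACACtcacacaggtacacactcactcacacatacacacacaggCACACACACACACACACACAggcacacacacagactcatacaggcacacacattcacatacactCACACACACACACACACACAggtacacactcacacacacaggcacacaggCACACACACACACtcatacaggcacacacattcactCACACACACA

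The Ret peak carried an uninterrupted CAA trinucleotide repeat of 53 bp, and the stretch shown of the Gfra1 peak of pool 3 held many short CA runs. The Pspn peak held no tandem repeat longer than 10 bp.

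Ret is transcribed from the minus strand and spans chromosome 6 from 118101766 to 118147762. Its peak, from 118004747 to 118005110, was 364 bp wide and came from pool 2 with a score of 202.68, rank 23 of 1032. It was the only peak at these genes in the upper part of its list, where the median score was 68.98. Its centre lay 96.8 kb beyond the 3' end of Ret and 142 kb downstream of the nearest annotated Ret start site, so that it fell just within the distance limit. The peak was located in intron 2 of Rasgef1a, which encodes a guanine nucleotide exchange factor, 11.5 kb from the closest start site of a protein-coding gene, in the 5' flank of that Rasgef1a transcript. Csgalnact2, an enzyme gene of chondroitin sulfate synthesis, lies between Rasgef1a and Ret, and the same peak was also within 100 kb of it. The nearest peak of another pool was one of pool 3 with a score of 74.72, at a gap of 261 kb. No IgG peak overlapped the Ret peak, and the nearest one was 1258 kb away. The study removed peaks that overlapped IgG peaks. Whether the deposited lists precede that step is not known, so the missing overlap cannot be read as a result.

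Gfra1, the co-receptor gene for GDNF, is the longest of the 9 genes, with a body of 220 kb between 58310094 and 58530399 of chromosome 19, also on the minus strand. The peak of pool 3 was the only peak inside the body of any of these genes. It lay in intron 5 of 10 of the longest coding transcript, from 58392828 to 58393681, 136 kb downstream of the nearest annotated start site. Its width of 854 bp was exceeded by 11 of the 712 peaks of pool 3 on chromosomes 1 to 19 and X. The score was 65.72, rank 539 of 724, against a median of 105.61 in the list, so the peak was wide but among the lower scores of pool 3. No other protein-coding gene had this peak within 100 kb.

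The IgG peak at Gfra1 lay 26.3 kb upstream of the closest Gfra1 start site, nearer to it than the peak of pool 3. It had a score of 60.56, rank 654 of 1007, and with 190 bp it was the narrowest of the IgG peaks on these chromosomes. The gap between the pool 3 peak and the IgG peak was 163 kb. Gfra1 was therefore marked both by the PAX6 antibody in 1 of the 3 pools and by the control antibody, at different positions. If the study's removal of peaks overlapping IgG peaks had already been applied to the lists, a shared position could not have been seen.

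Pspn is a short gene of 562 bp on chromosome 17 from 57138880 to 57139441. The peak of pool 1, from 57089591 to 57090131, lay 49.6 kb downstream of its start in an intergenic stretch. Its score of 58.99, rank 309 of 491, was below the median of 62.05 in that list. The protein-coding gene with the closest start site was Mllt1, which encodes a protein of the super elongation complex, at 15 kb. The region is dense in genes, and 11 protein-coding genes, Pspn among them, had this peak within 100 kb. The nearest peak of another pool was 2422 kb away and the nearest IgG peak 810 kb away.

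**Figure D1:**
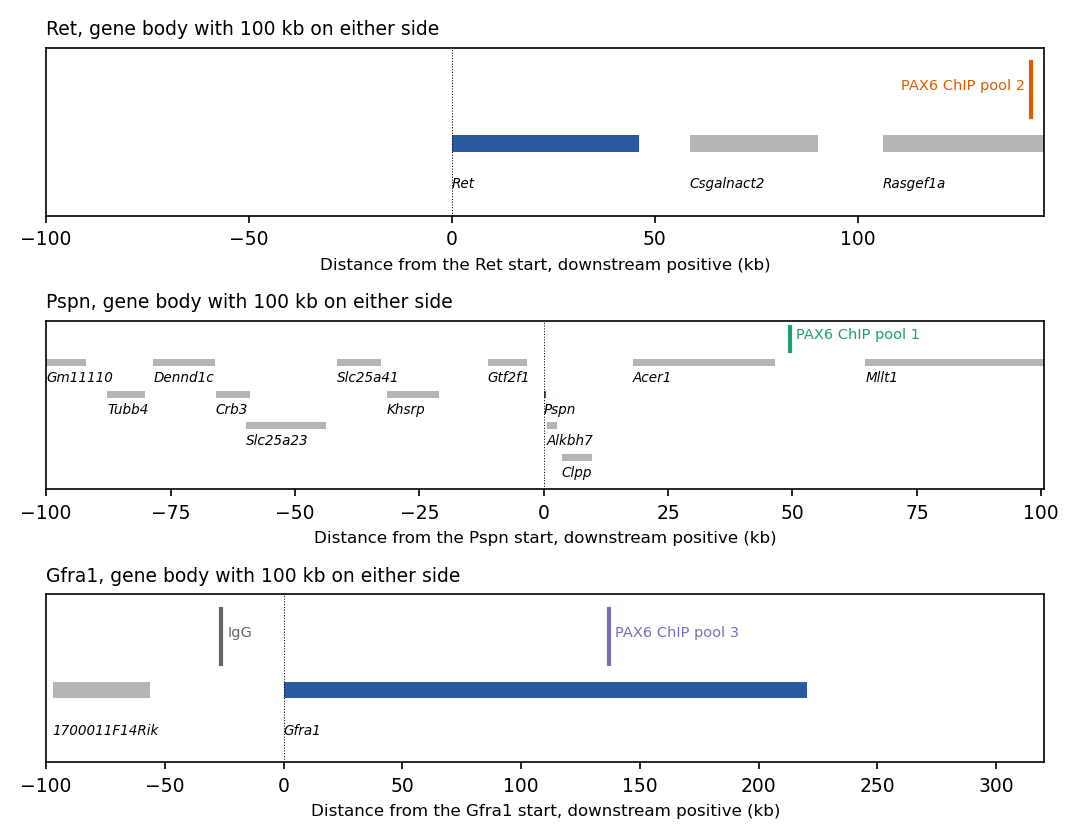
Centres of peaks (vertical coloured lines) and protein-coding genes (bars, with Ret, Pspn and Gfra1 in blue) over each gene body and 100 kb on either side, with the distance from the start of the gene in kb on the horizontal axis. The Ret peak lies near the edge of its window inside Rasgef1a, the Pspn peak lies between Acer1 and Mllt1, and Gfra1 has a pool 3 peak in an intron and an IgG peak upstream.

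No peak of any list was close to a start site of these genes. Over their 28 annotated start sites, the nearest PAX6 peak was the one 49.6 kb from Pspn and the nearest IgG peak the one 26.3 kb from Gfra1.

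In terms of numbers, 3 of the 9 genes (33.3%, Wilson 95% interval 12.1 to 64.6) had a PAX6 peak, against 17.5% of all protein-coding genes. The interval, which covers counting error only, includes the background. Each single list had a peak at 1 of the 9 genes (11.1%, 1.99 to 43.5). Over all protein-coding genes this share was 4.25% in pool 1, 8.08% in pool 2 and 6.84% in pool 3, against 8.63% for IgG. None of the 9 genes had peaks of 2 or more pools, which 1.56% of all protein-coding genes had. The windows of the 9 genes covered 2.23 Mb and contained 1 peak per list, which was 0.204% of all peaks (0.0360 to 1.14) for pool 1, 0.0969% (0.0171 to 0.547) for pool 2, 0.138% (0.0244 to 0.778) for pool 3 and 0.0993% (0.0175 to 0.560) for IgG. PAX6 and IgG lists thus could not be told apart at these genes by the number of peaks.

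Long genes have wider windows, and the share of genes with a PAX6 peak increased with the length of the gene body. It was 14% of genes under 10 kb, the class of Pspn, Nrtn, Artn and Gfra4, and 16.4% of genes from 10 to 50 kb, the class of Ret, Gdnf and Gfra3. Of genes from 50 to 200 kb, the class of Gfra2, 22.5% had a PAX6 peak. Of genes of at least 200 kb, the class of Gfra1, 40.3% had a PAX6 peak and 22.1% an IgG peak.

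**Figure D2:**
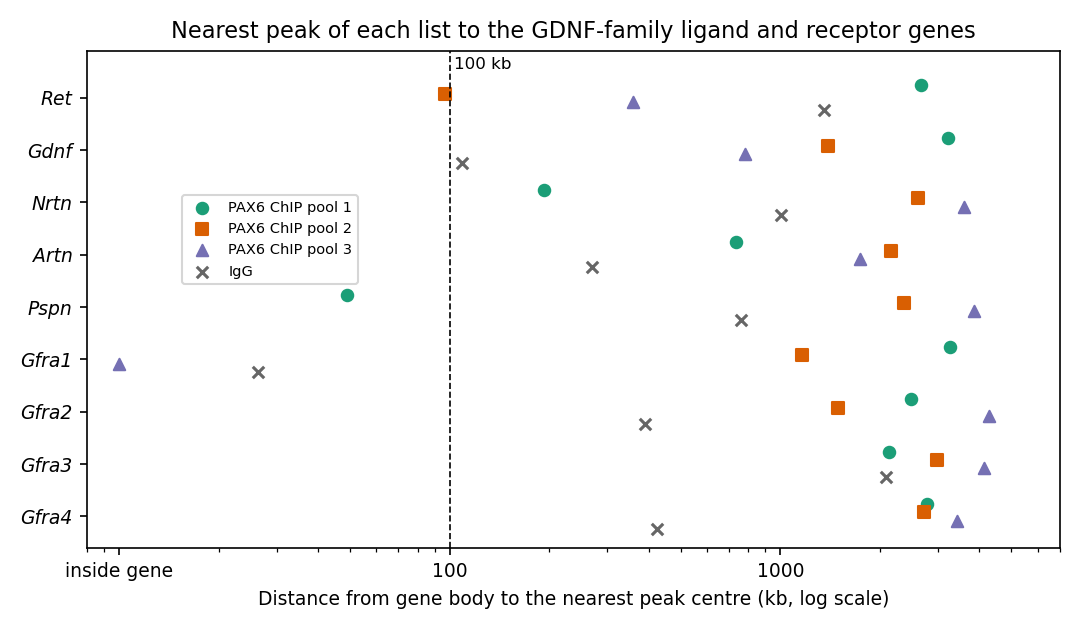
Distance from the body of each of the 9 genes to the centre of the nearest peak of each list, in kb on a logarithmic axis, with the position "inside gene" for a peak in the gene body. Left of the dashed line at 100 kb are the pool 2 peak of Ret, the pool 1 peak of Pspn and the pool 3 and IgG peaks of Gfra1.

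The genes without a peak differed in how far the nearest one was. The closest PAX6 peak to Gdnf, on chromosome 15 from 7761011 to 7787575, belonged to pool 3, at 782 kb, and those of pool 2 (1393 kb) and pool 1 (3215 kb) were farther away. The nearest IgG peak of Gdnf lay 109 kb downstream, just outside the limit, with a score of 60.54. Nrtn, on chromosome 17 from 56890748 to 56896953, was 193 kb from the same pool 1 peak that was counted for Pspn. The other list entries around Nrtn began with an IgG peak at 1003 kb. Artn, on chromosome 4 from 117598767 to 117602368, had a pool 1 peak of score 69.33 at 734 kb and an IgG peak at 269 kb.

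Among the co-receptors, Gfra2 (chromosome 14, 71289927 to 71379645) was 1494 kb from the nearest PAX6 peak, in pool 2, and 391 kb from the nearest IgG peak. Gfra3 (chromosome 18, 34849557 to 34880041) was 2127 kb from the nearest PAX6 peak, in pool 1, and 2092 kb from an IgG peak. Gfra4 (chromosome 2, 130865368 to 130868824) was 2727 kb from the nearest PAX6 peak, in pool 2, and 423 kb from an IgG peak. For these 3 genes and for Gdnf and Artn, the closest peak of all was an IgG peak.

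The median distance of the 9 genes to the nearest PAX6 peak of any pool was 734 kb, against 415 kb over all protein-coding genes. In each pool taken alone the 9 genes were farther away too, with medians of 2485 kb against 1908 kb (pool 1), 2162 kb against 968 kb (pool 2) and 3419 kb against 1226 kb (pool 3). They were closer to IgG peaks than all protein-coding genes were, at 423 kb against 967 kb. These distances are a description, and no test was made of them.

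**Figure D3:**
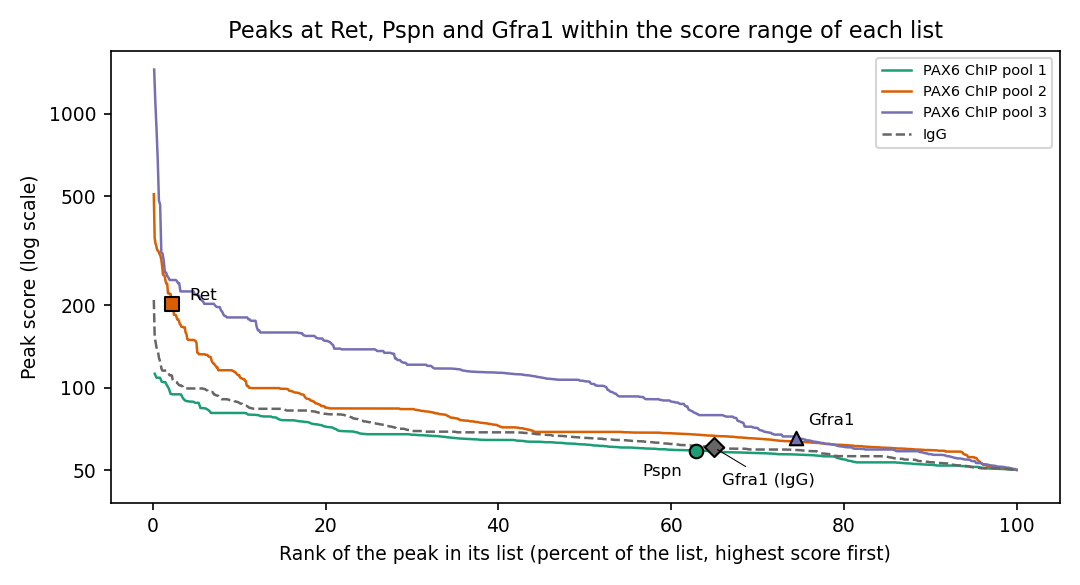
Score of every peak (vertical axis, logarithmic) against its rank as a percent of the list, highest score first, for the 3 PAX6 pools (solid lines) and IgG (dashed line). The marked peak of Ret, with a score of 202.68, is at the upper end of pool 2, while those of Pspn (58.99) and Gfra1 (65.72, and 60.56 for IgG) lie in the lower part of their lists.

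The CAA repeat of the Ret peak placed it in a group of peaks that was frequent in pool 2. Repeats of at least 20 bp of AAC or GTT, the class to which CAA belongs when both strands and all phases are counted, were present in 11.7% of pool 2 peaks (Wilson 95% interval 9.86 to 13.8). Pool 1 had them in 1.43% (0.695 to 2.93), pool 3 in 0.421% (0.143 to 1.23) and IgG in 0.398% (0.155 to 1.02). Windows of 364 bp, the width of the Ret peak, tiled over chromosome 6 held such a repeat in 0.209%. As the IgG libraries are labelled pool 1, antibody and pool cannot be told apart in the difference between pool 2 and IgG. The 119 peaks of pool 2 with the repeat scored higher, at a median of 115.84 against 68.73 among the 899 without it, and they were narrower, with a median width of 359 bp against 452 bp. They made up 60 of the 100 highest ranks of pool 2. The Ret peak was the 21st of these 119 by score and the 23rd in the whole list, so that 21 of the first 23 peaks of pool 2 carried the repeat. Whether the repeat had a part in the score of the Ret peak was not tested.

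At Gfra1, runs of CA or TG of at least 6 bp covered 76.5% of the pool 3 peak, a share that 43 of 712 peaks of pool 3 exceeded and that compares with a median of 39.3% in that list. The peak held 25 runs of at least 12 bp, of which 2 were as long as 20 bp. A CA or TG run of at least 20 bp was a frequent feature of every list. Pool 1 had it in 49.3%, pool 2 in 56.7% and pool 3 in 57.0%, and the share under the control antibody, 62.6%, was no lower. Among windows of 854 bp on chromosome 19 the share was 8.42%. Neither the Ret peak nor the Pspn peak had such a run, their longest being 4 bp and 9 bp.

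**Figure D4:**
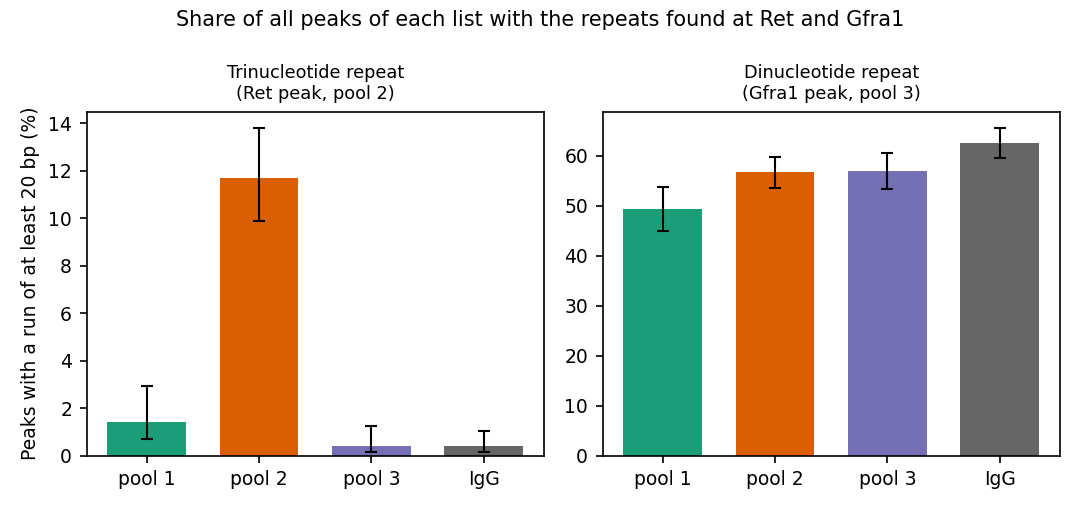
Percent of all peaks of each list (pools 1 to 3 and IgG) with an uninterrupted run of at least 20 bp of the trinucleotide repeat of the Ret peak (left) and the dinucleotide repeat of the pool 3 Gfra1 peak (right), with Wilson 95% intervals as error bars and a separate vertical scale in each panel. The trinucleotide repeat reaches 11.7% in pool 2 and at most 1.43% in the other lists, while the dinucleotide repeat is present in 49.3% to 62.6% of the peaks of every list.

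Short sequences linked with PAX6 were also searched on both strands. The core of its paired domain site, TTCACGC, was in none of the 3 PAX6 peaks. In the lists as a whole it was rare, in 6 of 489 peaks of pool 1 (1.23%) and 5 of 1018 of pool 2 (0.491%). Pool 3 had it in 0 of 712 (0%) and IgG in 8 of 1006 (0.795%), and no test was made of these few matches. Windows tiled over the chromosome of each peak had it in 0.575% at 364 bp (chromosome 6), 0.91% at 541 bp (chromosome 17) and 1.61% at 854 bp (chromosome 19). The lists mix peaks of other widths and other chromosomes, so their shares and those of the windows are not directly comparable. The palindrome TAATNNNATTA, bound by paired-type homeodomains, was in none of them either. Pool 1 had it in 11 peaks (2.25%), pool 2 in 10 (0.982%), pool 3 in 1 (0.14%) and IgG in 7 (0.696%). The tiled windows of the same 3 chromosomes had it in 1.28% at 364 bp, 1.68% at 541 bp and 2.68% at 854 bp. A missing match says only that these letters were not in the peak. The study itself reported possible PAX6 motifs that consist largely of CA or TG, and those were not searched here.

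Of 39 further genes of RET signalling, comprising alternative receptors, adaptors, kinases and inhibitors, 4 had a PAX6 peak (10.3%, Wilson 95% interval 4.06 to 23.6, against 17.5% of all protein-coding genes) and 1 had an IgG peak (2.56%, against 8.63%). None had peaks of 2 or more pools, against 1.56% of all protein-coding genes. Ncam1, which encodes an adhesion molecule that also serves as a receptor for GDNF with GFRA1, had a pool 2 peak with a score of 89.75 (rank 189 of 1032) in an intron, 11.1 kb from the nearest of its start sites. At Src, a kinase gene downstream of RET, a pool 2 peak of score 71.68 (rank 417) lay 277 bp beyond the 3' end. Gfral, which encodes the receptor of GDF15 and belongs to the GFRA family in sequence, had a pool 2 peak of score 75.38 (rank 380) 40.8 kb downstream of the gene. Cblc, the gene of a ubiquitin ligase, had a pool 3 peak of score 154.63 (rank 128 of 724) 35.3 kb upstream, but the closest start site there, at 9.33 kb, was that of Bcl3. The IgG peak, of score 67.23, lay 9.71 kb downstream of Ptprf, a receptor phosphatase gene that is named here after its value was seen. It was also the IgG peak closest to Artn. No PAX6 peak was found at 35 of the 39 genes, with the adaptor gene Grb2 among them.

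Gfra1 had the most lists, pool 3 and IgG, and 162 other genes among the 22350 protein-coding genes had peaks in exactly these lists. By the percentile of the best peak in each list, the genes most like Gfra1 were 9 genes tied at a mean difference of 6.26 percentile points over the 2 lists, among them Ccl19, Ccl21a and 4930578G10Rik on chromosome 4. Each of these 3 genes had its best peak at percentile 17.5 of pool 3 and 30.8 of IgG, against 25.7 and 35.2 for Gfra1. Neighbouring genes can have the same peak within 100 kb, so the tied genes may not be separate cases. Whether they share their peaks was not examined.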

How the data were processed

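PAX6 ChIP, input and IgG libraries of mouse EPCs were sequenced, 36 libraries in all. Per the submitters' processing notes and the study's methods, Bowtie was used for alignment to mm9, libraries were merged by pool, and MACS called the peaks. Which versions were run is not given in the sources used here. Peak lists were deposited with a score column, in which the authors put the logarithm-scaled p-value of MACS. Reads, inputs and signal tracks were not analysed here, and the depth behind each list is not given in the sources used here.

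Intervals, on mm9, were set beside GENCODE M1, an annotation of the same build (NCBIM37). A gene was counted when the centre of a peak lay in its body or within 100 kb. Background shares were taken over 22350 protein-coding genes. Of the 39 pathway genes, 38 matched by symbol and 1 by a RefSeq synonym. Repeats were searched as uninterrupted runs of at least 20 bp, and tandem repeats had units of up to 6 bp and at least 3 copies. The sequence of the IgG peak at Gfra1 is not reported here. Wilson 95% intervals cover counting error only. As each list comes from merged libraries, no test was made. The search functions were tested on simulated data. The 9 genes and the pathway list were chosen with earlier results of these data known, and the AAC or GTT repeat class, and the comparison by body length, after the sequences and positions were seen. All 9 genes, the nearest gene of each peak, the pathway genes with a peak and the genes most like the one with the most lists were named. Alternatives covered distance limits, start sites, the nearest gene, score limits of 70 and 100, removal of IgG overlaps, overlap by any base, repeat length and each pool left out. Python 3.11.15, numpy 2.4.6, scipy 1.17.1 and matplotlib 3.10.9 were used.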

Additional observations from a re-analysis of the deposited data

How the results depend on the processing

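The distance rule decided which genes had a PAX6 peak. With a limit of 10 kb or only the gene body, 1 gene (Gfra1) and 1 peak were left, with 0 IgG peaks. Over all protein-coding genes, 4.5% had a PAX6 peak and 2.18% an IgG peak at 10 kb, and 3.11% and 1.6% in the gene body. With 100 kb from the nearest start site, 1 gene (Pspn) and 1 PAX6 peak were left, and the IgG peak at Gfra1 was left too. When a peak was given to its nearest gene only, without the limit of 100 kb, there were 1 gene (Gfra1) and 1 PAX6 peak, and 2 IgG peaks. At 200 kb Nrtn was added, which made 4 genes, and IgG had 2 peaks, while 29.9% of all protein-coding genes had a PAX6 peak and 15.1% an IgG peak. With scores of at least 70 or at least 100, 1 gene (Ret) and 1 peak were left, with 0 IgG peaks. Removal of peaks that overlapped an IgG peak, or counting any base within the limit, left Ret, Pspn and Gfra1. The study's methods describe a removal of such peaks. If they were already absent from the deposited lists, the removal made here could not have changed the count. Leaving out each pool in turn gave 2 genes and 2 peaks every time, without Pspn (pool 1), Ret (pool 2) or Gfra1 (pool 3). No setting gave a gene with peaks of 2 or more pools. Of the 39 pathway genes, 2 had a PAX6 peak at 10 kb, 7 at 200 kb, 1 in the gene body and 1 at a score of at least 100, and 1 to 4 when each pool was left out, the lowest without pool 2. The shares of all protein-coding genes given above for 10 kb, 200 kb and the gene body apply to these counts too. For the start-site, nearest-gene, score, overlap and pool settings no such share is given, so the counts there cannot be read against a background. The share of PAX6 peaks at the 9 genes with a CA or TG repeat, 33.3%, was 0% at 30 bp, and 0% to 50% when each pool was left out, the lowest without pool 3. No paired analysis was possible because the lists come from merged libraries. The depth behind each list is not given in the sources used here, so peaks missed for lack of reads cannot be told apart from regions without binding.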
